A study of Mus musculus with 36 samples.

Results

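The metallothioneins Mt1, Mt2 and Mt3, the metal-sensing transcription factor Mtf1, the zinc transporters Slc30a1, Slc30a10, Slc39a4 and Slc39a14, the methyltransferase gene Nnmt and the lipid kinase gene Pip5k1a were followed in mouse liver. A probe was a member where its gene name in the array files equalled one of these 10 symbols, of 37074 names on the array. This gave 19 of 56605 probes, of which 18 passed the filter on dim probes. The genes had been chosen from earlier results on these arrays, mainly on the genotype difference after CL316243, and 1 Pip5k1a probe was chosen because it tracked Mt2. That difference is therefore given without a test for all members, and Mt1, Mt2 and Pip5k1a have no test in any comparison that uses the CL316243 groups. For the other members, comparisons with a CL316243 group use arrays that entered the choice. Their p-values and counts are descriptions and no independent support.

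RNA was measured in the livers of 36 male C57Bl/6J mice, 1 single-colour array each, in 6 groups of 6. AAKO mice lacked ATGL, the lipase that begins the release of stored fat, in white adipose tissue, and CTRL mice were their controls; the promoter used for the deletion and the age of the mice are not given in the sources used here. Each genotype was fed freely, fasted for 24 h, or fed and given 3 mg/kg of CL316243, a beta 3 adrenergic agonist, by gavage in 0.5% carboxymethyl cellulose at Zeitgeber time 10. Livers of every group were taken at Zeitgeber time 16. Fed groups belonged to experiment 2 and the other groups to experiment 1, so a difference from fed mice cannot be told apart from a difference between experiments. The labels mention gavage for no fed or fasted group, so vehicle and drug cannot be told apart either.

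Metallothioneins are small cysteine-rich proteins that bind zinc and copper. MTF1 senses free zinc and switches on Mt1, Mt2 and the zinc exporter gene Slc30a1 through metal response elements, and glucocorticoids and inflammatory cytokines also induce liver metallothionein. SLC39 (ZIP) proteins bring zinc into the cytosol and SLC30 (ZnT) proteins carry it out. NNMT, abundant in liver, methylates nicotinamide with S-adenosylmethionine as the methyl donor.

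The probe named Pip5k1a that followed Mt2 is shown first because its letters differ from those of another Pip5k1a probe and can be set beside a metallothionein coding probe on the array. Sequences are from the array files, 5′ to 3′, and capitals mark TGC and TGT triplets, the cysteine codons, in the reading frame with most of them.
Pip5k1a probe A_55_P1999902: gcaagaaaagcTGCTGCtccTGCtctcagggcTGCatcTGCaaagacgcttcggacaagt
Pip5k1a probe A_55_P1999908: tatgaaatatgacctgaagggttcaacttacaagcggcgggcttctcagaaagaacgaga
Mt4 probe A_51_P424272: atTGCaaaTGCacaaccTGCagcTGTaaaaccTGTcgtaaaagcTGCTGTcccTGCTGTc
The first probe, placed by the array design on the minus strand at chr3:94901128-94901187 (mm9), held 5 such triplets in 1 frame. The median over all 56605 probes was 1, and 418 probes (0.738%) held at least 5. Its longest run of letters shared with the Mt4 probe was 11 bases, and a shared run of at least that length was found in 62 of the other 56604 probes (0.11%). The Mt4 run was not the longest, as 1 probe shared a run of 18 bases. The runs it shared with the Mt1, Mt2 and Mt3 probes were 5 or 6 bases long. Those probes held 2 such triplets each for Mt1, 1 for Mt2 and 4 for Mt3. No coding sequence of Mt1 or Mt2 was available to compare, so these short runs say nothing about likeness to those coding sequences. Whether metallothionein RNA binds this probe was not tested, and its signal is given below by its probe name rather than as Pip5k1a expression.

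The Mt2 and Mt1 promoters are shown because Mt2 and the brighter of the 2 Mt1 probes moved together. RefSeq windows (GRCm38.p6) were found for 7 of the 10 genes, not for Slc39a4, Slc39a14 and Nnmt. Each run is the 250 bases before the annotated start, and capitals mark the metal response core TGCACNC or TGCGCNC on either strand.
Mt2 promoter, chr8:94172368-94172617, plus strand: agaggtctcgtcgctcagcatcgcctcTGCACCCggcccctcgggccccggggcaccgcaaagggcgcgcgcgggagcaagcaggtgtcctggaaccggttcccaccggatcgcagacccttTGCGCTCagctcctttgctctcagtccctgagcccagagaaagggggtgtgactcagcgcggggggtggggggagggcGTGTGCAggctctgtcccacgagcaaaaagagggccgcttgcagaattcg
Mt1 promoter, chr8:94178839-94179088, plus strand: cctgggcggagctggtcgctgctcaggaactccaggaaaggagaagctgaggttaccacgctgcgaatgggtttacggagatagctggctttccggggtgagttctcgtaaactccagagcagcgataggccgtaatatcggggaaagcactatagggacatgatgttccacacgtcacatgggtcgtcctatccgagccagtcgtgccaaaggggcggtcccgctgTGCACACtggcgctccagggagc
The core occurred 3 times in the Mt2 window, where the marked matches do not overlap, and 1 time in that of Mt1. Each count covers these 250 bases only. Letters before the window or past the annotated start were not searched, so a count is not the number of elements a gene has. Of 32851 promoter windows, 21.4% held it at least 1 time and 1.26% at least 3 times. It also occurred 3 times in the Slc30a10 window, where 2 of the matches overlap, and 1 time in that of Slc30a1, and had no match in those of Mt3, Mtf1 and Pip5k1a. With the looser spelling TGCNCNC, which 44.4% of windows held, Mt2 had 5 matches and Mt1 had 1.

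All levels are log2 signals relative to each array's 75th percentile, so 0 is that brightness, and differences are on the log2 scale ± SE. On these arrays 58.5% to 65.7% of probes were well above background. At several member probes 3 arrays, all of wash batch 2, lay far from the rest of their groups. Calls lost within that batch alone are therefore not separate from these arrays. In CTRL fed replicate 6 and AAKO fed replicate 6, 14 and 17 of 27 listed glucocorticoid, cytokine and stress responsive genes were above all other arrays of their group and 2 and 4 were below. Those above included the acute phase gene Saa1, at 9.60 against 5.53 to 6.87 and at 10.08 against 4.70 to 9.59, and Lcn2, at 5.86 against 0.41 to 1.96 and at 7.80 against -0.43 to 4.97. In CTRL fasted replicate 2, 6 of the 27 were above and 4 below the other arrays. Those above were Fkbp5 (5.55 against 3.91 to 4.59), Tat (8.48 against 7.36 to 8.11), Zbtb16, Il6ra, Hmox1 and Hspa1a. Those below were Gclc, Gclm, Nqo1 and Txnrd1. Saa1 (7.74 against 4.29 to 10.06) and Lcn2 (4.04 against 0.84 to 8.50) of that array lay within the range of the others. What set these 3 arrays apart was not tested.

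Hepatocyte markers were steady, with 8 of 8 well above background on every array and a summed signal of 11.60 to 11.91 on the log2 scale. The summed neutrophil markers differed between groups and between arrays of a group. They ran from -0.15 to 5.76 in CTRL fasted, with the highest value in replicate 2, and from 2.66 to 6.39 in AAKO fasted, where 5 of 5 markers were well above background on all arrays against 3 of 5 in CTRL fasted. They ran from -0.13 to 2.08 in CTRL fed and from -0.09 to 4.95 in AAKO fed, with the highest value in replicate 6 of both, and from -0.66 to 1.93 and 1.1 to 2.93 after CL316243 in CTRL and AAKO. In AAKO CL316243 livers that sum was lower than in 5 of the 6 AAKO fasted livers. The intestinal marker sum was lower in AAKO fasted (2.43 to 3.64) than in CTRL fasted livers (5.33 to 6.32). Of its 3 markers on the array, Vil1 and Lct were well above background on no array of either group. That sum therefore rests on the single gene Fabp2. The part of these markers in the results was not tested, and fewer cells of a type and less RNA per cell cannot be told apart in whole liver.

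Mt2, an inducible metallothionein of liver, had its widest spread in fed mice at its probe on chr8:96697371-96697430 (mm9, plus strand). In CTRL fed livers its level ran from 1.74 to 8.94 (median 3.16), and in AAKO fed livers from 3.01 to 9.37 (median 5.36). After fasting it ran from 7.34 to 9.35 in CTRL (median 8.64) and from 9.25 to 9.39 in AAKO (median 9.36). After CL316243 it ran from 3.04 to 8.85 in CTRL (median 6.73) and from 9.40 to 9.67 in AAKO (median 9.48). Replicate 6 supplied the highest value of both fed groups, and without it the fed levels ran from 1.74 to 3.34 in CTRL and from 3.01 to 7.47 in AAKO. The 12 fasted and CL316243 AAKO arrays lay within a narrow band, with SDs of 0.05 and 0.10 against 0.78 to 2.57 in the other groups. In that band only 34 to 54 probes per array were brighter than Mt2, no spot was saturated, and the brightest probe of these arrays lay between 10.17 and 10.75.

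Mt2 was higher in fasted than in fed livers, by 4.65 ± 0.94 in CTRL (25.1-fold, limma adjusted p = 0.000139) and by 3.73 ± 0.94 in AAKO (13.3-fold, adjusted p = 0.000836). The ranges overlapped only through the fed replicate 6 arrays, and without both of them the differences were 5.66 (adjusted p = 1.28e-07) and 4.47 (adjusted p = 1.97e-06). The differences were 5.98 and 5.42 in the first wash batch alone. In the second, which holds both fed replicate 6 arrays, they were 3.31 and 2.04 and neither was called (adjusted p = 0.0982 and 0.253). AAKO and CTRL did not differ beyond the threshold when fed (1.78 ± 0.94, adjusted p = 0.793) or fasted (0.87 ± 0.94, adjusted p = 0.468). With only the fasted groups in the fit, which have a smaller spread, the same 0.87 had an adjusted p of 0.0358. After CL316243 the genotypes did not overlap and AAKO was 3.13 ± 0.94 higher, a difference used in choosing the gene.

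Mt1, the neighbour of Mt2, had a bright probe, A_66_P111660 (chr8:96704165-96704224), that repeated this order. Its level ran from 3.35 to 9.10 in CTRL fed (median 5.16), 8.62 to 9.30 in CTRL fasted (9.08) and 4.80 to 9.18 in CTRL CL316243 (7.40). In AAKO it ran from 4.39 to 9.25 when fed (6.24), 9.21 to 9.37 when fasted (9.32) and 9.41 to 9.59 after CL316243 (9.49). It rose on fasting by 3.54 ± 0.68 in CTRL (adjusted p = 7.28e-05) and by 2.89 ± 0.68 in AAKO (adjusted p = 0.000401). Within wash batch 2 these were 2.49 and 1.75 and were not called (adjusted p = 0.0787 and 0.165).

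The other Mt1 probe, A_52_P423810 (chr8:96703844-96703903), assigned to a predicted transcript, was dim and separated the fasted genotypes. Its level ran from -2.64 to 4.28 in CTRL fasted (median -1.02) and from 4.54 to 4.95 in AAKO fasted (median 4.70), with no overlap. The difference was 4.80 ± 1.04 (27.8-fold, adjusted p = 0.000261), 5.11 within wash batch 1 and 4.48 within wash batch 2, where it was not called (adjusted p = 0.0581). The highest CTRL value came from CTRL fasted replicate 2, and without that array the difference was 5.65. In fed livers it ran from -4.74 to -1.07 in CTRL (median -3.94) and from -3.95 to 2.75 in AAKO (median -1.98). Fasting raised it by 3.41 ± 1.04 in CTRL (adjusted p = 0.00784) and by 5.77 ± 1.04 in AAKO (adjusted p = 1.27e-05). Neither rise was called within wash batch 2 (4.19, adjusted p = 0.0773; 3.85, adjusted p = 0.0717), and in CTRL the rise was not called within wash batch 1 either (2.63, adjusted p = 0.0668). After CL316243 it ran from -4.14 to 0.84 in CTRL (median -0.49) and from 1.68 to 4.69 in AAKO (median 3.70), again apart, with a difference of 4.50 that was not tested. The 2 Mt1 probes therefore disagreed on the fasted genotype difference, which was 0.28 ± 0.68 at the bright probe (adjusted p = 0.764). The fit shares 1 spread, and the bright probe's SDs were 0.27 and 0.08 in CTRL and AAKO fasted but 1.91 and 1.77 when fed. It lay near the top of the scale, with 46 to 116 probes brighter on CTRL fasted and 41 to 55 on AAKO fasted arrays. Whether its differences are compressed there was not tested.

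**Figure D1:**
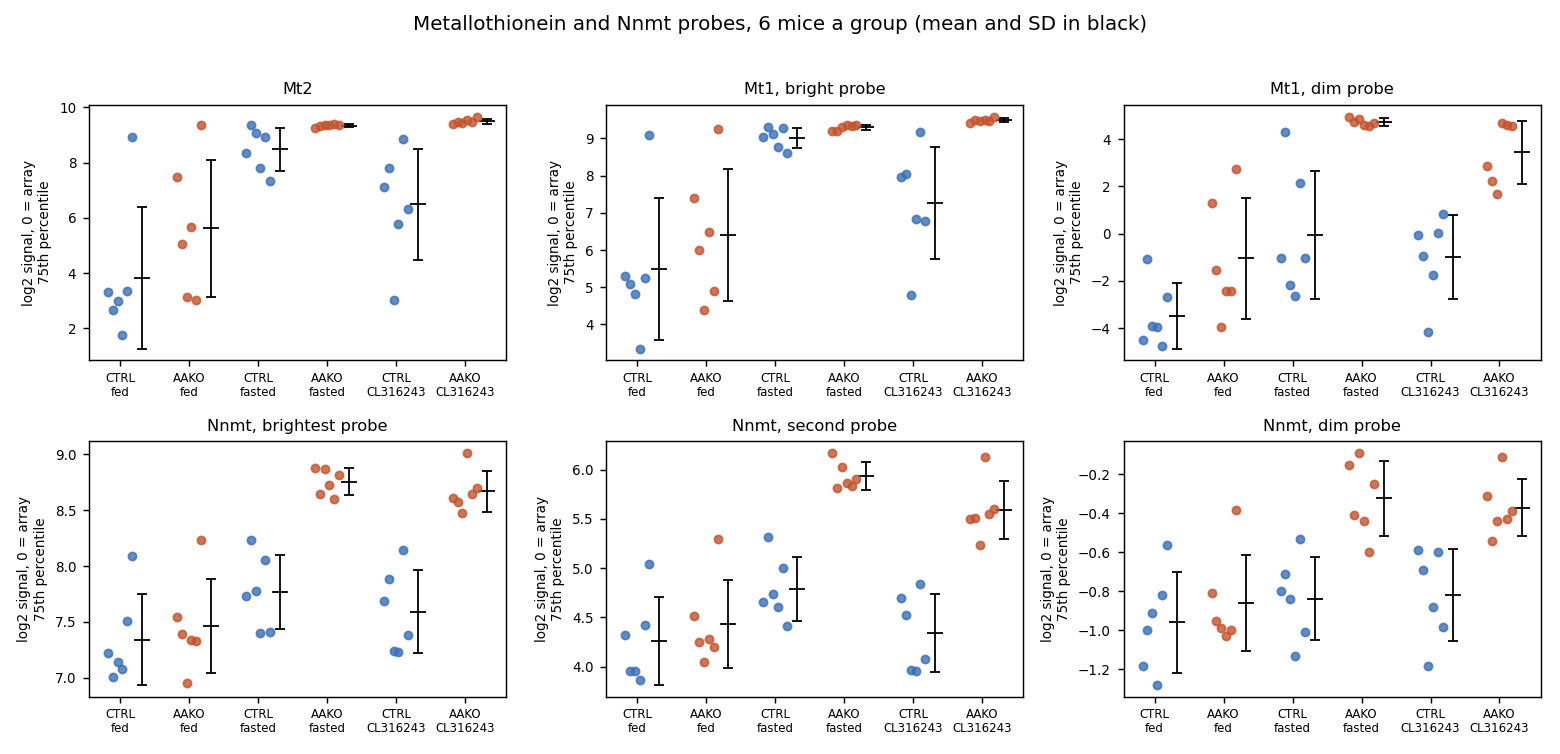
Log2 signal relative to the array 75th percentile (y axis) of Mt2, both Mt1 probes and the 3 Nnmt probes in each of 36 livers (points) by group (x axis), with the mean and SD in black. Mt2 in the 12 fasted or CL316243 AAKO livers sits between 9.25 and 9.67, while fed livers spread from 1.74 to 9.37.

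The Pip5k1a probe A_55_P1999902 followed Mt2 from array to array. Its level ran from 0.28 to 6.89 in CTRL fed (median 1.28), 5.01 to 8.37 in CTRL fasted (6.49) and 1.25 to 6.51 in CTRL CL316243 (4.21). In AAKO it ran from 1.08 to 7.58 when fed (2.88), 8.74 to 8.93 when fasted (8.84) and 7.83 to 8.93 after CL316243 (8.60). Its deviations from the group means correlated with those of Mt2 at r = 0.981 over 36 arrays (Spearman 0.962), and at 0.987 and 0.978 within the wash batches. Without the 2 arrays farthest in Mt2, both fed replicate 6, r was 0.966. These correlations describe arrays that share scaling and hybridisation, and this probe was chosen for the likeness. Its fed and fasted p-values below are therefore descriptions and no support independent of Mt2. It was higher in fasted than in fed livers by 4.44 ± 0.92 in CTRL (adjusted p = 0.000201) and 5.41 ± 0.92 in AAKO (adjusted p = 5.76e-06). The CTRL rise was 3.42 within wash batch 2 and not called there (adjusted p = 0.0954). The fasted genotype difference of 2.32 ± 0.92 (adjusted p = 0.0359), with no overlap of the groups, was not called within wash batch 2 (2.18, adjusted p = 0.282), when dim probes were kept (adjusted p = 0.0545), or in 6 of the fits that left out 1 array, those without CTRL fasted replicate 1, 4 or 6 or AAKO fasted replicate 2, 3 or 6. That fasted difference was called within wash batch 1 (2.47, adjusted p = 0.0119) and without both fed replicate 6 arrays (adjusted p = 0.00312). The fit shares 1 spread over the groups, whose SDs were 2.4 and 2.5 in CTRL and AAKO fed and 1.19 and 0.08 in CTRL and AAKO fasted. After CL316243 AAKO was 4.51 ± 0.93 higher, with no overlap and no test.

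The other probes named Pip5k1a, which encodes a kinase that makes phosphatidylinositol 4,5-bisphosphate, did not show this pattern. Over all arrays A_51_P441974 ran from -1.0 to -0.04 and A_55_P1999908 from -5.67 to -3.67. Neither was called on fasting or between genotypes when fed or fasted, with differences between -0.26 and 0.15. Their correlations with Mt2 were -0.095 and 0.040. After CL316243 AAKO was higher by 0.40 ± 0.10 with no overlap at the first and by 0.56 ± 0.22 with overlap at the other, without a test. The fourth, A_55_P2720824, was well above background on 6 of 36 arrays and was not tested.

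**Figure D2:**
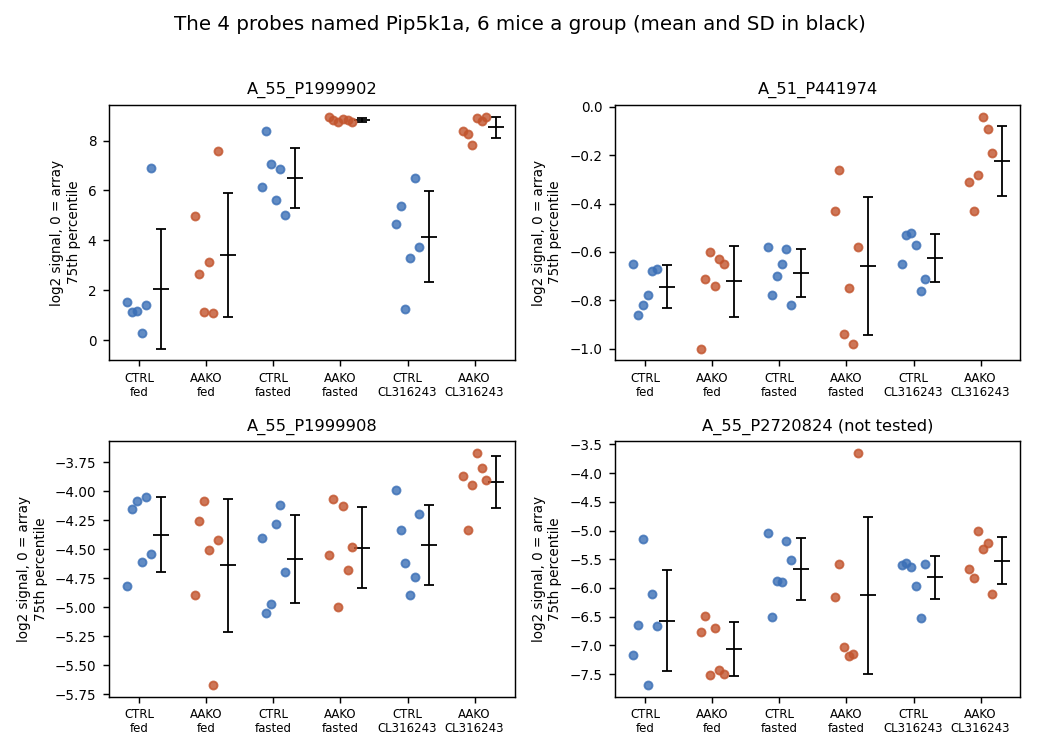
Log2 signal relative to the array 75th percentile (y axis, a different range in each panel) of the 4 probes named Pip5k1a in each of 36 livers (points) by group (x axis), with the mean and SD in black. A_55_P1999902 spans 0.28 to 8.93, whereas A_51_P441974 stays between -1.0 and -0.04.

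**Figure D3:**
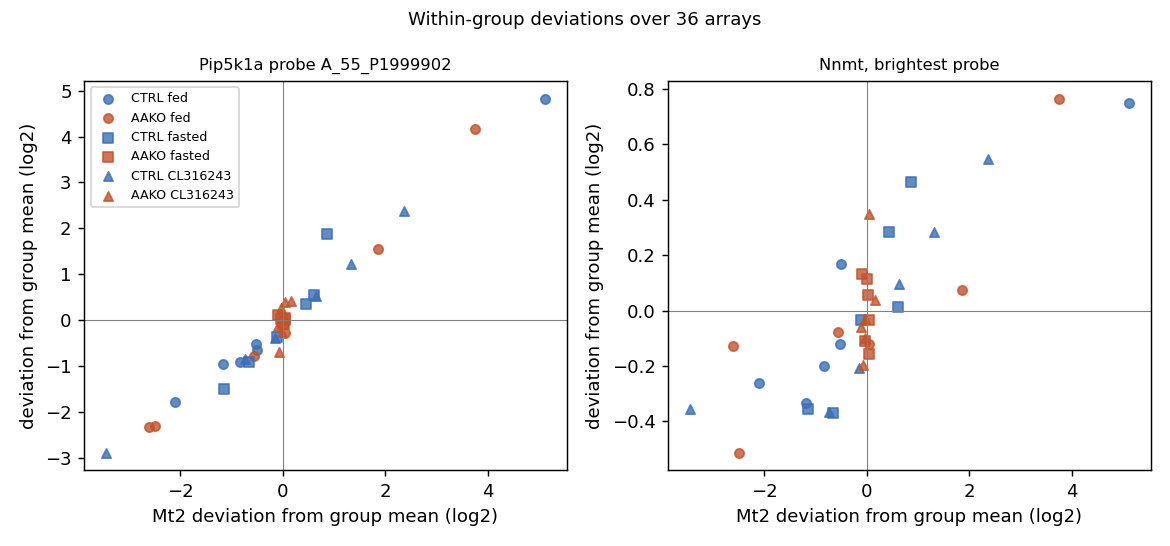
Deviation of each of 36 arrays from its group mean (log2) for Mt2 (x axis) against the Pip5k1a probe A_55_P1999902 (left) and the brightest Nnmt probe (right). The points follow a line in the left panel (r = 0.981) and scatter more in the right panel (r = 0.839, or 0.736 without both fed replicate 6 arrays).

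Nnmt was higher in AAKO than in CTRL livers after fasting. At its brightest probe, A_55_P2505920 (chr9:48399997-48400056, minus strand), the level ran from 7.40 to 8.23 in CTRL fasted (median 7.76) and from 8.60 to 8.88 in AAKO fasted (median 8.76), with no overlap. The difference was 0.98 ± 0.18 (1.98-fold, adjusted p = 3.78e-05), 1.02 and 0.94 within the wash batches. The other Nnmt probes gave 1.15 ± 0.19 (adjusted p = 8.38e-06) and 0.52 ± 0.13 (adjusted p = 0.00111), the last a call lost in wash batch 2 alone (0.49, adjusted p = 0.0962). Fed livers overlapped, from 7.01 to 8.09 in CTRL and from 6.95 to 8.23 in AAKO (0.12 ± 0.18, adjusted p = 0.95). In AAKO the brightest probe was 1.29 ± 0.18 higher in fasted than in fed mice (adjusted p = 2.42e-07). On arrays that entered the choice of the genes, it was 1.23 ± 0.18 higher after CL316243 than in fed mice (adjusted p = 4.91e-06). That difference was 1.03 and uncalled in wash batch 2 (adjusted p = 0.0569). In CTRL its fasting difference was 0.43 ± 0.18 (adjusted p = 0.0567), which was called without both fed replicate 6 arrays (0.57, adjusted p = 0.00334). The genotypes differed in their fasting response by 0.86 ± 0.26 (adjusted p = 0.00938), a call lost in wash batch 2 alone (0.83, adjusted p = 0.178). After CL316243 the level ran from 7.23 to 8.14 in CTRL and from 8.47 to 9.01 in AAKO, 1.1 ± 0.18 higher and described without a test.

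The other Nnmt probes were dimmer. A_55_P2745682 ran from 3.86 to 5.04 in CTRL fed (median 4.14), 4.41 to 5.32 in CTRL fasted (4.70) and 3.95 to 4.84 in CTRL CL316243 (4.30). In AAKO it ran from 4.05 to 5.30 when fed (4.26), 5.81 to 6.17 when fasted (5.89) and 5.24 to 6.13 after CL316243 (5.53). It was the only Nnmt probe called for fasting in CTRL (0.53 ± 0.19, adjusted p = 0.0241), a call lost in 5 of the fits that left out 1 array, those without CTRL fed replicate 2, 3 or 4 or CTRL fasted replicate 2 or 5 (differences of 0.45 to 0.49), and in wash batch 2 (0.27, adjusted p = 0.572). A_55_P2181557 had the smallest differences, and its groups overlapped when fasted, from -1.13 to -0.53 in CTRL and from -0.60 to -0.09 in AAKO.

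By the same measure of likeness, the 5 gene names closest to Mt2 were the Pip5k1a probe, Mt1 (0.981), 1200007C13Rik (0.861), Lbp (0.839), which encodes a lipopolysaccharide-binding acute phase protein, and Nnmt (0.839, and 0.736 without both fed replicate 6 arrays). Mt1 is placed here by its bright probe. The dim Mt1 probe A_52_P423810 had a correlation of 0.573 with Mt2, and 0.398 and 0.643 within the wash batches. Closest to the Pip5k1a probe were Mt2, Mt1 (0.955), 1200007C13Rik (0.899), Nnmt (0.890) and Lrrc75a (0.846). Closest to Nnmt were that probe, 1200007C13Rik (0.868), Kmo (0.865), an enzyme of tryptophan breakdown, 2010109N18Rik (0.852) and Il13ra1 (0.850).

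Mtf1 had 4 probes that split by position. The 2 with lower coordinates on chromosome 4, A_55_P2715466 and A_52_P236072, start within 1637 bp of each other, and A_66_P122382 and A_52_P467266 start 41353 and 45781 bp further along the plus strand. On fasting the first pair rose, by 0.61 ± 0.11 and 0.67 ± 0.08 in CTRL (adjusted p = 3.75e-05 and 8.33e-08) and by 1.18 ± 0.11 and 1.00 ± 0.08 in AAKO (adjusted p = 5.98e-11 and 5.44e-12). The second pair fell, with differences of -0.99 ± 0.10 and -1.48 ± 0.14 in CTRL (adjusted p = 1.65e-09 and 6.9e-10) and -1.48 ± 0.10 and -2.42 ± 0.14 in AAKO (adjusted p = 4.42e-14 and 2.49e-15). All 8 of these changes were called within both wash batches. At A_52_P467266 the level ran from 0.29 to 0.61 in CTRL fed (median 0.51), -1.83 to -0.73 in CTRL fasted (-0.87), 0.30 to 0.74 in AAKO fed (0.45) and -2.17 to -1.59 in AAKO fasted (-1.94). A_66_P122382 was brighter, from 2.46 to 2.82 in CTRL fed (median 2.71), 1.36 to 1.90 in CTRL fasted (1.74), 2.54 to 2.95 in AAKO fed (2.64) and 0.94 to 1.48 in AAKO fasted (1.19). In the other direction, A_52_P236072 ran from -1.12 to -0.91 in CTRL fed, -0.70 to -0.03 in CTRL fasted, -1.32 to -1.06 in AAKO fed and -0.32 to 0.01 in AAKO fasted. Fed and fasted livers did not overlap at any of the 4 Mtf1 probes in either genotype. The share of all probes without overlap was not computed, and fasting called 43.6% of all tested probes in CTRL and 64.6% in AAKO. The response was larger in AAKO at each Mtf1 probe, with interactions of 0.58, 0.32, -0.49 and -0.94 in the order of position (adjusted p = 0.00442, 0.0324, 0.00697 and 0.000502). The 0.32 at A_52_P236072 was not called when dim probes were kept (adjusted p = 0.0567), without both fed replicate 6 arrays (0.30, adjusted p = 0.0642), or in 7 of the fits that left out 1 array, those without CTRL fed replicate 3, CTRL fasted replicate 3, 4 or 5, AAKO fed replicate 6 or AAKO fasted replicate 1 or 4 (0.26 to 0.31). Within wash batch 1 the interactions at the second pair were called, and within wash batch 2 that at A_55_P2715466 alone was called (0.73, adjusted p = 0.0451). Fasted genotypes differed by 0.32 ± 0.11 and 0.21 ± 0.08 at the first pair (adjusted p = 0.0159 and 0.0334), neither called within a wash batch or with only these groups in the fit. Leaving out 1 array ended the call at A_55_P2715466 in 1 fit, without CTRL fasted replicate 5 (0.24), and at A_52_P236072 in 5, without CTRL fasted replicate 3, 4 or 5 or AAKO fasted replicate 1 or 4 (0.15 to 0.20). At the second pair they differed by -0.48 ± 0.10 and -0.93 ± 0.14 (adjusted p = 0.000148 and 2.47e-06), called within both. After CL316243 the AAKO to CTRL difference was small and of 1 sign, 0.21 to 0.28 at the 4 probes, and was not tested. No single direction on fasting can therefore be given for Mtf1 RNA.

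**Figure D4:**
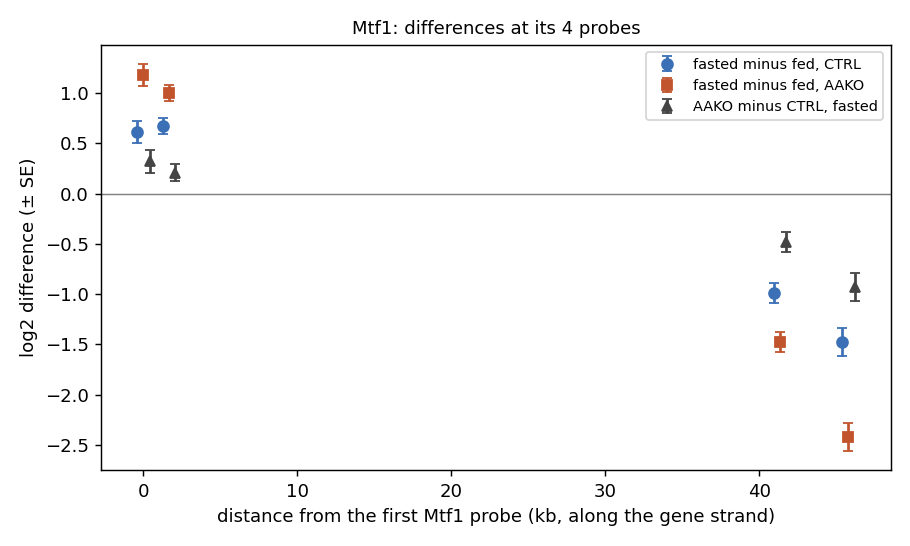
Log2 difference ± SE (y axis) at the 4 Mtf1 probes against distance in kb from the first probe (x axis; symbols are set apart sideways by 0.4 kb) for fasting in CTRL, fasting in AAKO, and genotype when fasted. All 3 differences are above 0 at the first 2 probes and below 0 at the last 2.

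Slc39a14, the gene of ZIP14, a zinc, iron and manganese importer that inflammation induces in liver, was far higher in fasted AAKO than in fasted CTRL livers. At its probe on chr14:70703394-70703453 the level ran from 2.24 to 4.93 in CTRL fasted (median 2.42) and from 5.91 to 6.93 in AAKO fasted (median 6.56), with no overlap. The difference was 3.72 ± 0.27 (13.2-fold, adjusted p = 1.54e-12), 3.92 and 3.52 within the wash batches, and 4.12 without CTRL fasted replicate 2. Fed livers overlapped, from 3.10 to 3.89 in CTRL (median 3.22) and from 2.74 to 3.80 in AAKO (median 3.06). Fasting raised it by 3.38 ± 0.27 in AAKO (adjusted p = 1.76e-12), and in CTRL the difference was -0.48 ± 0.27 (adjusted p = 0.154). CTRL fasted replicate 2, at 4.93 against 2.24 to 2.62 in the others, set that CTRL value: without it the difference was -0.88 (adjusted p = 5.4e-05). The responses of the genotypes differed by 3.86 ± 0.38 (adjusted p = 7.69e-09). After CL316243 it ran from 3.82 to 4.30 in CTRL and from 4.60 to 5.31 in AAKO. On these arrays, which entered the choice of the genes, it was 1.98 ± 0.27 above fed in AAKO (adjusted p = 1.25e-06). That difference was 1.48 and uncalled in wash batch 2 (adjusted p = 0.134). In CTRL it was 0.71 ± 0.27 above fed (adjusted p = 0.0534), which was called with the authors' deposited values (0.75, adjusted p = 0.0377), with quantile normalization (0.76, adjusted p = 0.0427), within wash batch 1 (0.86, adjusted p = 0.00347) and with only these groups in the fit (adjusted p = 0.00315).

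Slc30a1, the gene of the zinc exporter ZnT1 and an MTF1 target, was higher in AAKO than CTRL livers after fasting and lower in AAKO livers after CL316243 than when fed. At chr1:193736760-193736819 it ran from 1.19 to 2.00 in CTRL fasted (median 1.33) and from 2.37 to 2.74 in AAKO fasted (median 2.46), a difference of 1.06 ± 0.13 (2.08-fold, adjusted p = 5.71e-08) that was 1.27 and 0.85 within the wash batches. In AAKO CL316243 livers, where Mt2 was highest, it ran from 0.35 to 1.03 (median 0.53) against 1.29 to 1.93 in AAKO fed (median 1.45). The difference was -0.88 ± 0.13 (adjusted p = 4.66e-06), on arrays that entered the choice of the genes. CTRL ran from 1.07 to 1.72 when fed (median 1.52) and from 1.03 to 1.35 after CL316243 (median 1.21), with a difference of -0.29 ± 0.13 (adjusted p = 0.11). The genotype difference after CL316243 was -0.57 ± 0.13, without a test. The genotypes differed in their fasting response by 1.04 ± 0.18 (adjusted p = 5.63e-05). Over all arrays its deviations correlated with those of Mt2 at 0.051.

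Slc30a10, the gene of a manganese exporter of the ZnT family, fell in fasted AAKO livers. At chr1:187292107-187292166 it ran from -1.32 to -0.06 in CTRL fasted (median -0.31) and from -4.10 to -2.39 in AAKO fasted (median -2.82), with no overlap. The difference was -2.48 ± 0.30 (5.59-fold lower, adjusted p = 4.25e-08), -2.08 and -2.88 within the wash batches. The fasting difference was -2.45 ± 0.30 in AAKO (adjusted p = 1.85e-08) and 0.06 ± 0.30 in CTRL (adjusted p = 0.901), while fed livers ran from -1.05 to -0.31 in CTRL and from -1.25 to -0.05 in AAKO. The responses differed by -2.51 ± 0.43 (adjusted p = 3.02e-05). After CL316243 it ran from -0.54 to 0.17 in CTRL (median -0.27) and from -1.99 to 0.34 in AAKO (median -0.62), with overlap and an untested difference of -0.49 ± 0.30.

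Slc39a4, the gene of the zinc importer ZIP4, was bright at chr15:76442866-76442925 and lower in fasted than in fed livers, by -0.44 ± 0.15 in CTRL (adjusted p = 0.013) and -0.72 ± 0.15 in AAKO (adjusted p = 5.88e-05). Within wash batch 2 these were -0.28 and -0.34 and were not called (adjusted p = 0.284 and 0.152). AAKO ran from 5.37 to 6.00 when fed and from 4.43 to 5.37 when fasted, and CTRL from 5.29 to 5.95 and from 4.82 to 5.47. The fasted genotype difference was -0.27 ± 0.15 (adjusted p = 0.12), called within wash batch 1 (-0.55, adjusted p = 0.0153) and 0.01 within wash batch 2. Mt3, a metallothionein known mainly from brain, was lower in AAKO fasted livers, from -1.42 to -1.04, than in CTRL fasted livers, from -0.91 to -0.27. That difference was -0.79 ± 0.10 (adjusted p = 5.18e-08), -0.90 and -0.68 within the wash batches, opposite in sign to the dim Mt1 probe. Its probe lies at chr8:96677927-96677986. Fed livers ran from -0.69 to -0.23 in CTRL and from -0.69 to -0.45 in AAKO, and after CL316243 from -0.51 to -0.09 and from -0.84 to -0.40. The fasting difference was 0.04 ± 0.10 in CTRL (adjusted p = 0.768) and -0.71 ± 0.10 in AAKO (adjusted p = 1.27e-07), and the responses differed by -0.75 ± 0.14 (adjusted p = 7.25e-05).

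**Figure D5:**
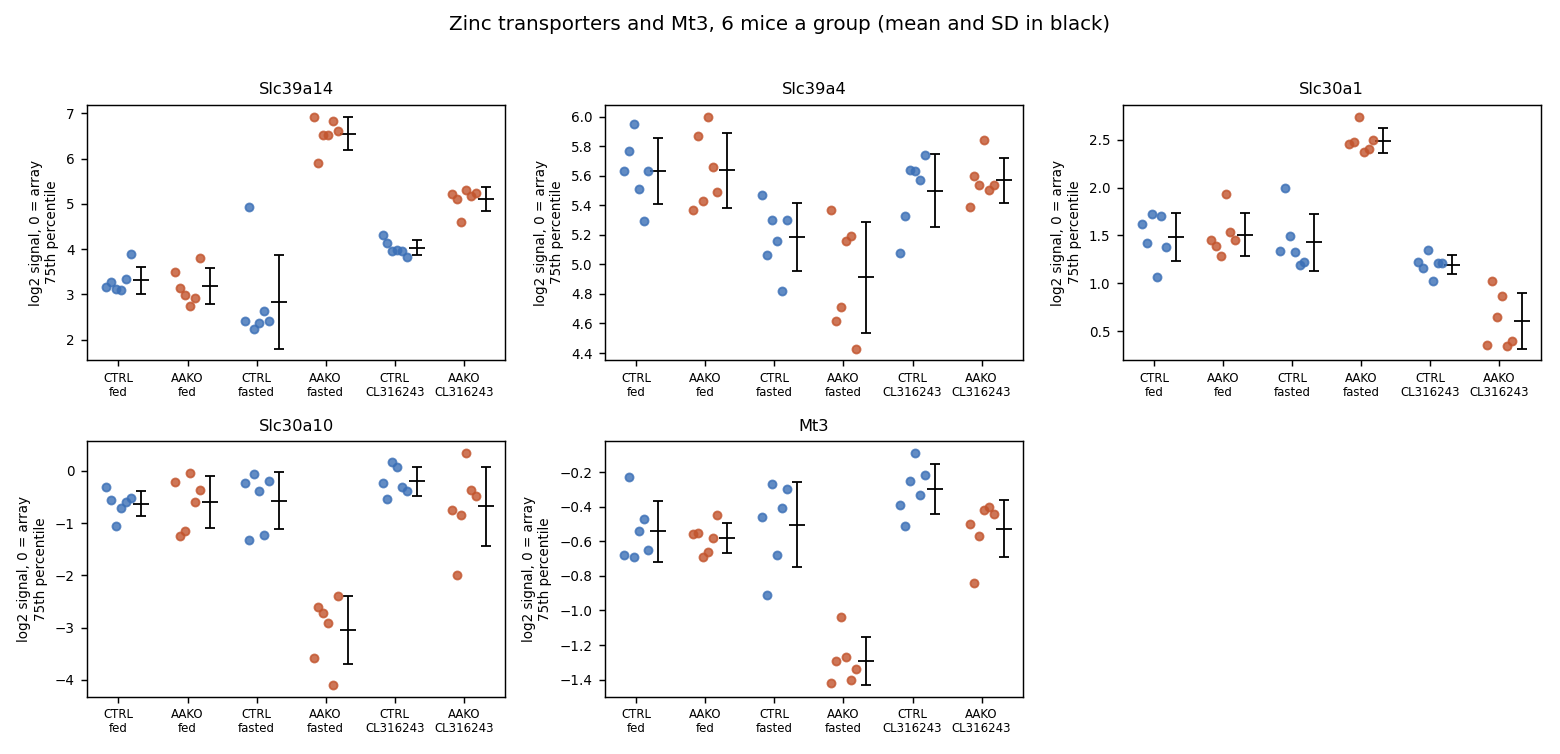
Log2 signal relative to the array 75th percentile (y axis, a different range in each panel) of 4 zinc transporter genes and Mt3 in each of 36 livers (points) by group (x axis), with the mean and SD in black. AAKO fasted livers stand above all CTRL livers for Slc39a14 (5.91 to 6.93) and Slc30a1 (2.37 to 2.74) and below them for Slc30a10 (-4.10 to -2.39) and Mt3 (-1.42 to -1.04).

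Counts over the members are set beside the share of all 36549 tested probes. They include Pip5k1a A_55_P1999902, which was chosen because it tracked Mt2. That probe was called between fasted genotypes and on fasting in both genotypes. Between fed genotypes, 0 of 18 member probes were called by limma, 2 had an unadjusted p under 0.05, and 0.0985% of all probes were called. Between fasted genotypes 13 were called, 9 higher and 4 lower in AAKO, where 50.2% of all probes were called (22.5% higher and 27.6% lower), and the members' median difference was 0.30 against -0.03 over all probes. No count is given for the genotypes after CL316243, the difference that chose the genes. Fasting in CTRL called 10, of which 7 rose and 3 fell, where 43.6% of all probes were called (22.3% higher, 21.3% lower). Fasting in AAKO called 16, of which 11 rose and 5 fell, where 64.6% were called (29.9% higher, 34.7% lower), and the median was 0.99 against -0.06. The interaction of genotype and fasting called 10, of which 6 were positive and 4 negative, where 34.4% were called (15.3% and 19.1%).

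The comparisons with CL316243 groups were counted over the 12 probes not of Mt1, Mt2 or Pip5k1a. Both CL316243 groups entered the choice of the genes, so these counts and p-values describe the members and are no independent support. CL316243 against fed livers called 2 of 12 in CTRL, where 23.6% of all probes were called, and both were of Mtf1 (A_52_P467266, -0.51, and A_66_P122382, -0.28, which was not called in 8 of the fits that left out 1 array). In AAKO it called 7 of 12, of which 6 were higher and 1, Slc30a1, was lower, where 31.2% of all probes were called (16.3% higher, 14.9% lower). Fasted against CL316243 livers called 5 of 12 in CTRL, where 36.7% were called. In AAKO it called 9 of 12, of which 4 were higher and 5 lower when fasted, where 60.8% were called (27.7% higher, 33.1% lower). In AAKO these included Slc30a1, 1.86 ± 0.13 higher when fasted (adjusted p = 1.88e-13), Slc39a14, 1.39 ± 0.27 higher (adjusted p = 4.44e-05), and Slc30a10, with a difference of -2.37 ± 0.30 (adjusted p = 4.82e-08). Among the comparisons counted here, scaling moved the share of all called probes that were higher by over 10 points in 4. With array median scaling it went from 51.1% to 40.7% for fasting in CTRL and from 52.5% to 39.6% for fasted against CL316243 in CTRL. With the authors' deposited values it went from 52.3% to 42% for CL316243 against fed in AAKO and from 45.6% to 59.5% for fasted against CL316243 in AAKO.

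Zinc transporter genes other than the members were called in both directions between fasted genotypes, where 50.2% of all probes were called. Of 10 tested probes of the ZnT family, 70% were called, 1 higher and 6 lower in AAKO (median -0.39). Of 19 probes of the ZIP family, 52.6% were called, 3 higher and 7 lower (median -0.16). Slc30a4, a vesicular zinc transporter, was 0.63 ± 0.11 higher (adjusted p = 1.64e-05), and Slc39a6 1.55 ± 0.14 higher (adjusted p = 7.51e-11). Slc30a8, dim and well above background on 5 of 6 AAKO fasted arrays, had a difference of -2.05 ± 0.39 (adjusted p = 4.67e-05), Slc39a9 of -0.93 ± 0.11 (adjusted p = 1.92e-08) and Slc39a8, the nearest relative of Slc39a14, of -0.79 ± 0.14 (adjusted p = 1.45e-05).

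Among nicotinamide and NAD genes other than Nnmt, 7 of 44 tested probes were higher and 24 lower in AAKO fasted livers (median -0.48), so that 70.5% were called beside the 50.2% of all probes. Acmsd, which diverts tryptophan breakdown away from NAD synthesis, was 2.28 ± 0.23 higher (adjusted p = 1.13e-09) and Nampt, which salvages nicotinamide, 1.99 ± 0.24 higher (adjusted p = 4.22e-08). Ido2, an enzyme that starts tryptophan breakdown, had a difference of -2.83 ± 0.20 (adjusted p = 6.43e-13). Nnt was also lower, but its probe was well above background on 1 of 6 AAKO fasted arrays, so its difference has no exact size. Of 22 probes of methyl donor genes, 9 were higher and 6 lower (median 0.20), 68.2% in all, with Mat2a, a synthase of S-adenosylmethionine, 0.73 ± 0.11 higher (adjusted p = 1.52e-06). Mtrr was 0.69 ± 0.11 higher and Bhmt, which remethylates homocysteine, differed by -1.33 ± 0.12. Of 39 probes of glucocorticoid, cytokine and stress responsive genes, 12 were higher and 6 lower (median 0.17), 46.2% in all. The glucocorticoid target Fkbp5 was 2.55 ± 0.41 higher (adjusted p = 5.43e-06) at a dim probe that ran from -5.70 to -1.33 in CTRL fasted and from -1.51 to -1.19 in AAKO fasted, and its other probes were not called (0.38, adjusted p = 0.238, and 0.71, adjusted p = 0.087). Also called was the heat shock gene Hspa1a, 3.30 ± 0.38 higher, while Crp and Nqo1 differed by -1.74 ± 0.32 and -0.98 ± 0.13. Of 19 probes of phosphoinositide kinase genes other than Pip5k1a, 10 were higher and 4 lower (median 0.36), 73.7% in all, with Pi4ka 1.21 ± 0.12 higher and Pikfyve and Pip5kl1 at -0.96 ± 0.14 and -0.70 ± 0.11. Of 33 probes of other metal handling genes, Mtf1 left out, 4 were higher and 12 lower (median -0.15), 48.5% in all. The metalloreductase gene Steap4 was 2.04 ± 0.35 higher and the dim Mt4 probe 0.70 ± 0.29 higher (adjusted p = 0.0478), and Cp, the gene of ceruloplasmin, and the iron transporter gene Slc11a2 differed by -1.78 ± 0.38 and -1.28 ± 0.23.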

How the data were processed

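Liver RNA (200 ng of total RNA, TRIzol, Cy3) was hybridised to single-colour Agilent arrays, 1 per mouse. Per the file headers, the deposited intensity values are Agilent Feature Extraction 10.10.1.1 processed signals, already background-subtracted. The authors' deposited table of log2 values (36898 probes), whose normalization is not given in the sources used here, served as an alternative, and it holds 18 of the 19 member probes. The submitters' processing notes also name limma.

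From the intensities, log2 signal minus the log2 75th percentile of each array was computed after 2701 outlier-marked spots (0.127%) were removed, and spots of a probe were averaged. No spot was saturated. Depth does not apply to arrays, whose number limits the precision. In R 4.3.3 with limma 3.58.1, 1 model of 36 arrays held 6 group means and the wash batch, which mixes groups. It was fitted to the 36549 probes well above background on at least 5 of 6 arrays of a group. Tests were two-sided, Benjamini-Hochberg adjusted over all tested probes, and called at an adjusted p under 0.05. The fit was tested on simulated data. The labels do not give litters, and each mouse was treated as independent. P-values rest on the spread between mice within groups, as 1 estimate per probe shared by the 6 groups.

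The member genes, the gene lists and the rules for naming genes were chosen with earlier results of these data known. The rule named all member probes, the 2 called genes of each list with the largest rise and fall between fasted genotypes, and the 5 gene names most like Mt2, the Pip5k1a probe and Nnmt by correlation of deviations from group means. Lbp and the others so named have no test. 1 gene that the rule names is not reported here. Probe positions are those of the array design (mm9), and promoters are RefSeq windows (GRCm38.p6). Exon and UTR annotation on mm9 was not used here. Alternatives were other scalings and backgrounds, the filter, the wash batch and slide terms, single batches, each array left out, 1 probe per gene and the replicate number as a block.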

Additional observations from a re-analysis of the deposited data

Results flagged for a closer look

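Of 114 groups of 6 arrays checked over the member probes, 13 held 1 array far from the rest, and chance gives about 1 in 20. Fed replicate 6 of either genotype made 7 of these and CTRL fasted replicate 2 made 3. In CTRL fed replicate 6, the level was 9.10 for Mt1 A_66_P111660 (nearest other array 5.30), 8.94 for Mt2 (3.34), 6.89 for Pip5k1a A_55_P1999902 (1.53) and 3.89 for Slc39a14 (3.34). In AAKO fed replicate 6 it was -1.32 for Mtf1 A_52_P236072 (-1.15), -0.38 for Nnmt A_55_P2181557 (-0.81) and 5.30 for Nnmt A_55_P2745682 (4.51). In CTRL fasted replicate 2 it was -1.83 for Mtf1 A_52_P467266 (-0.89), 2.00 for Slc30a1 (1.49) and 4.93 for Slc39a14 (2.62). The other 3 were Pip5k1a A_51_P441974 in AAKO fed replicate 1 at -1.0 (-0.74), Slc30a1 in AAKO fasted replicate 3 at 2.74 (2.50) and Slc39a14 in AAKO CL316243 replicate 3 at 4.60 (5.10).

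The fasting response differed between genotypes, by the limma interaction with its adjusted p, at 10 member probes. AAKO minus CTRL was 3.86 for Slc39a14 (7.69e-09), -2.51 for Slc30a10 (3.02e-05), 1.04 for Slc30a1 (5.63e-05) and -0.75 for Mt3 (7.25e-05). It was 0.86 for Nnmt A_55_P2505920 (0.00938) and 0.97 for Nnmt A_55_P2745682 (0.00561). For Mtf1 it was 0.58 at A_55_P2715466 (0.00442), 0.32 at A_52_P236072 (0.0324, a call lost in 7 of the fits that left out 1 array), -0.49 at A_66_P122382 (0.00697) and -0.94 at A_52_P467266 (0.000502).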

How the results depend on the processing

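No difference changed sign where it was called in either fit. Among 3877 values of tested member differences under alternatives, 113 changed sign with neither value called, 23 of them among 138 within wash batch 2 and 3 among 138 within wash batch 1; an example is Slc39a4 between fasted genotypes. Counts of called member probes, over the probes with a test, moved by over 1.5 times mainly where fewer probes or arrays entered. With 1 probe per gene they were 7 (genotype, fasted), 5 and 10 (fasting in CTRL and AAKO), 1 and 3 (CL316243 against fed in CTRL and AAKO), 2 (fasted against CL316243 in CTRL) and 6 (interaction). Within wash batch 2 they were 8 (genotype, fasted), 4 (fasting in CTRL), 0 and 2 (CL316243 against fed in CTRL and AAKO) and 5 (interaction). That batch holds both fed replicate 6 arrays and CTRL fasted replicate 2. CL316243 against fed in CTRL went from 2 to 1 with array median scaling, without a filter or with slide as a fixed factor; the cause was not tested.

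Leaving out 1 array at a time gave 0 to 0 (genotype, fed), 11 to 13 (genotype, fasted), 9 to 11 and 16 to 16 (fasting in CTRL and AAKO), 1 to 3 and 7 to 7 (CL316243 against fed), 5 to 6 and 9 to 9 (fasted against CL316243) and 9 to 11 (interaction). For CL316243 against fed in CTRL it gave 1 without CTRL fed replicate 1, 3 or 5 or CTRL CL316243 replicate 1 or 4. The replicate number as a block, a pairing the labels do not state, left all 216 member results on the same side; the mean correlation of same-numbered arrays was -0.001, 12 of 90 pairs were over 0.1, and 6 of 36 arrays correlated best with their own number. The fit without both fed replicate 6 arrays was chosen after seeing the data. Arrays have no read depth; A_55_P2720824 is limited by signal, being well above background on 6 arrays.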
